A study of Drosophila melanogaster with 64 samples.

Results

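Transcript levels in fly heads 1 h after a sham procedure were set against those of uninjured flies at time 0. The comparison takes 6 of the 64 libraries of a traumatic brain injury (TBI) time course: 3 of sham flies at 1 h and 3 of controls, all prepared on library day 2. It covers all 10739 genes that passed a filter on low counts, of 17481 in the deposited table. All flies were w[1118] males, 3 d old when the sham or injury was given, kept at 25 C under 12 h of light a day, and each sample pooled the whole heads of 20 flies. Controls were 3 d old males for which the labels name no procedure. The labels do not say what the sham procedure consisted of, nor at what hour of the day any group was collected, so the procedure, the hour that followed it and the hour of day cannot be told apart. Sham flies at 3, 6, 12 and 24 h and TBI flies at 1 and 24 h, with 3 samples each, are used below to show what the genes did later and after injury. Replicates are labelled as biological ones. The p-values therefore rest on the spread between pools of heads, estimated over all 33 libraries of library day 2 and not over the 6 compared alone.

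A sham group is the baseline that an injury is usually set against. Immediate-early genes such as Hr38 and sr (stripe) follow neuronal activity. The Toll and Imd pathways end in the NF-kappaB factors Dif, dl (dorsal) and Rel (Relish), the JNK pathway acts through AP-1 and induces its own phosphatase puc (puckered), and ERK signalling induces its own phosphatase Mkp3. Heat-shock genes answer misfolded protein, and sug (sugarbabe) is a transcription factor induced by dietary sugar.

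The sham libraries at 1 h held 24712257, 19026308 and 32203072 gene counts, and the control libraries 39229782, 27119506 and 27543350. Genes of the mitochondrial genome took 17.2% to 21.3% of the gene counts in sham libraries and 14.5% to 24.8% in control libraries. Control replicate 1 stood apart: its log2(CPM + 1), where CPM is a gene count scaled to the depth of its library, correlated at 0.9822 and 0.9883 with the other controls, and at 0.9903 to 0.9918 with the sham libraries. The 3 sham libraries correlated with each other at 0.9938 to 0.995. Markers of the head were present in every library: the summed level of 5 neuronal markers was 6700 to 7270 CPM in sham and 4960 to 7390 CPM in control libraries, that of 5 glial markers 1250 to 1580 CPM in sham and 1120 to 1290 CPM in control libraries, and that of 5 photoreceptor markers 35100 to 39600 CPM in sham and 35900 to 47700 CPM in control libraries. Of 5 gut markers 3 were at 0 in all 6 libraries, while the others were not, LManII averaging 237 CPM in sham and 252 CPM in control heads. Fat body markers summed to 5040 to 7690 CPM in sham and 5870 to 6510 CPM in control libraries, hemocyte markers to 102 to 206 CPM in sham and 122 to 185 CPM in control libraries, and muscle markers to 1480 to 1570 CPM in sham and 1290 to 1450 CPM in control libraries. Nearly all of the fat body sum came from apolpp and Lsp2, and of the muscle sum from Mlc2 and Mhc. The other 3 markers of each averaged at most 1.37 CPM. The 4 measured markers of testis and accessory gland summed to 0.162 to 0.473 CPM in sham and 0.479 to 0.841 CPM in control libraries. With marker levels scaled by library size alone, the groups did not overlap in the muscle sum (sham higher) or in that of testis and accessory gland (sham lower). None of the 30 marker genes tested passed in edgeR or in DESeq2, or had an unadjusted p under 0.05. In whole heads a change in the number of cells of a type and a change in RNA per cell cannot be told apart.

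At 1 h after sham 47 genes differed from the controls at a Benjamini-Hochberg adjusted p under 0.05 (edgeR quasi-likelihood test), which is 0.438% of the genes tested. Of these, 42 rose (0.391%) and 5 fell (0.0466%), with a median log2 fold change of 1.09 among the genes that rose and -1.06 among those that fell. At least 2-fold differences made up 27 of the 47 calls (0.251%), 23 of them higher and 4 lower. The 3 sham and the 3 control libraries did not overlap for any of the 47 genes, which held for 7.48% of all genes tested (5.26% with sham higher, 2.22% with sham lower). At an unadjusted p under 0.05 there were 578 genes (5.38%). The genes called were not rare transcripts alone: mean levels over the 6 libraries ran between 0.559 and 620 CPM. The count depended on the libraries used, with 63 calls (49 higher, 14 lower) when control replicate 1 was left out, 26 without control replicate 2, 25 without control replicate 3 and 17 (15 higher, 2 lower) without sham replicate 2. DESeq2 gave 73 calls, and a fit of the 2 groups alone 26, of which 18 were among the 47 (17 higher, 1 lower). Calls lost in that fit were 29, among them Hr38, CrebA, Sid, puc and Hsp68. Of the 47 genes 15 passed whichever 1 of the 6 libraries was left out, and all 47 kept their direction.

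**Figure D1:**
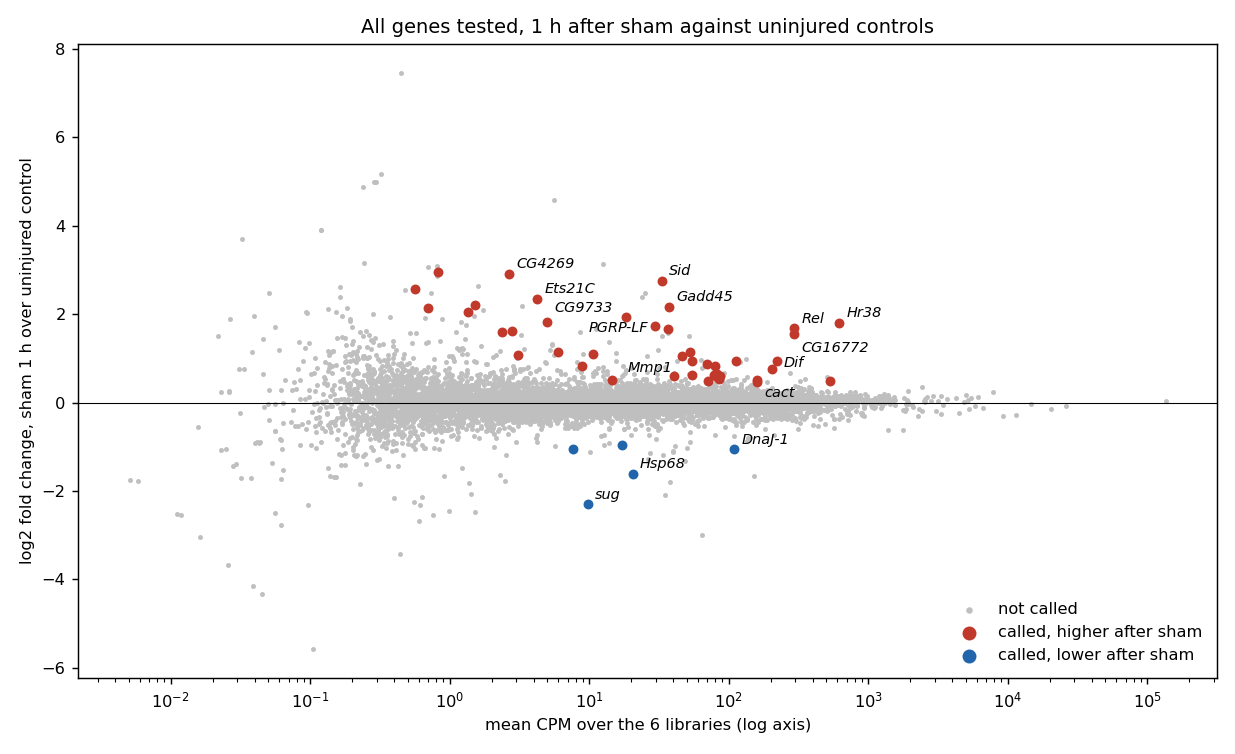
Log2 fold change of sham at 1 h over uninjured control (vertical axis) against mean CPM over the 6 libraries (horizontal log axis), 1 point per gene tested. The 42 called genes that were higher (red) lie between 0.47 and 2.96, the 5 that were lower (blue) between -2.30 and -0.96, and some uncalled genes of low level (grey) lie farther out.

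Genes of the NF-kappaB pathways had the most calls of the 30 gene lists counted, and the JNK and AP-1 list had the largest share (21.1%). The lists were written with earlier results of these data known, so their shares are no separate support. Of 32 genes of the Toll and Imd pathways tested, 5 rose and none fell (15.6% called, against 0.438% of all genes). The median log2 fold change was 0.13 over the list against 0.00 over all genes. Rel, the NF-kappaB factor of the Imd pathway, read at 378, 504 and 470 CPM in sham heads and at 115, 157 and 151 CPM in control heads. Every sham library was above every control, and the log2 fold change was 1.68 ± 0.27 (SE, adjusted p = 0.00236). The factors of the Toll pathway moved with it, by less. Dif read at 307, 300 and 261 CPM in sham and 165, 142 and 149 CPM in control heads (log2 fold change 0.93 ± 0.12, adjusted p = 1.15e-04). Its neighbour dl read at 91.2, 98.3 and 97.8 CPM in sham and 69.4, 52.8 and 64.3 CPM in control heads (0.62 ± 0.11, adjusted p = 0.00352). These 2 genes lie 3.67 kb apart on 2L in the BDGP6.54 annotation.

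Both other calls in the list were inhibitors. PGRP-LF, a membrane protein that holds the Imd receptor in check, read at 52.3, 52.7 and 62.2 CPM in sham and 19.0, 20.7 and 12.7 CPM in control heads, a log2 fold change of 1.67 ± 0.29 (adjusted p = 0.00446). Cactus (cact), which keeps Dif and dl out of the nucleus, read at 180, 207 and 174 CPM in sham and 125, 134 and 138 CPM in control heads (0.50 ± 0.09, adjusted p = 0.00536). Another Imd inhibitor, pirk, had 18.7, 21.1 and 20.6 CPM in sham and 7.78, 8.61 and 6.86 CPM in control heads, with no overlap, and did not pass in edgeR (1.38 ± 0.35, adjusted p = 0.111) but was called in DESeq2. PGRP-LB (0.59 ± 0.42) and PGRP-SC2 (-2.68 ± 2.07), which degrade peptidoglycan, and the serpin nec (0.31 ± 0.29) did not pass. The receptors Tl (0.23 ± 0.08, adjusted p = 0.506) and PGRP-LC (0.30 ± 0.14, adjusted p = 0.897) did not pass. Neither did the adaptor imd (0.07 ± 0.16), the kinases pll (0.29 ± 0.20) and IKKbeta (-0.07 ± 0.17) or key (-0.02 ± 0.10), the regulatory subunit of the IKK complex. The ligand spz had a log2 fold change of 0.38 ± 0.20 (adjusted p = 0.957). Its relative spz3, outside the list, rose, with 14.1, 13.2 and 16.1 CPM in sham and 7.50, 6.24 and 6.36 CPM in control heads (1.11 ± 0.24, adjusted p = 0.0265). Rel, Dif and dl passed whichever 1 of the 6 libraries was left out. PGRP-LF missed without control replicate 3 (adjusted p = 0.054) and cact without sham replicate 2 (0.0827), and spz3 passed only with all 6 libraries or without control replicate 1. Left to the 2 groups alone, the fit no longer called dl (0.215) or cact (0.422).

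None of the 31 antimicrobial peptide genes tested passed in edgeR. At an unadjusted p under 0.05, 3 were higher and 0 lower (against 5.38% of all genes in either direction). DESeq2 called 1 of the 31 higher, CecB. Their median log2 fold change was 0.14 with 21 of 31 above 0, and -0.13 with 13 above 0 when control replicate 1 was left out. Over all genes 5480 of 10739 were above 0, and 5495 of 10851 without control replicate 1. Several of the peptide genes varied widely between libraries of 1 group. AttC read at 90.8, 171 and 205 CPM in sham heads and at 11, 316 and 70.9 CPM in controls, which overlapped (0.23 ± 1.17). Drs, a Toll target, read at 7.00, 9.34 and 25.9 CPM in sham and 1.87, 312 and 28.4 CPM in control heads. The cecropin CecB stood higher in each sham library, at 12.2, 14.4 and 5.51 CPM against 0.492, 0.635 and 0.176 CPM in controls, with a wide error (4.59 ± 1.30, adjusted p = 0.190).

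Genes of the JNK and AP-1 group rose at 4 of 19 tested (21.1% called, against 0.438% of all genes), with none lower. The list median was 0.11, and 0.21 without control replicate 1. Gadd45, a stress-induced activator of MAP kinase kinase kinases in mammals, had the smallest adjusted p of all genes. It read at 54.7, 70.5 and 58.2 CPM in sham and 13.1, 12.5 and 15.2 CPM in control heads (2.17 ± 0.20, adjusted p = 5.49e-07). The ETS factor Ets21C was low in both groups and still apart, at 5.55, 7.87 and 7.75 CPM in sham and 1.57, 0.952 and 1.62 CPM in control heads (2.35 ± 0.26, adjusted p = 9.74e-06). Mmp1, a matrix metalloproteinase, read at 58.7, 66.4 and 62.6 CPM in sham and 33.7, 25.0 and 31.4 CPM in controls (1.06 ± 0.22, adjusted p = 0.0170). The feedback phosphatase puc read at 95.8, 108 and 96.0 CPM in sham and 72.7, 51.0 and 68.9 CPM in controls (0.64 ± 0.14, adjusted p = 0.0293).

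The upper part of that pathway and the AP-1 factors themselves did not pass. The kinase genes bsk (-0.04 ± 0.10) and hep (0.05 ± 0.11) and the ligand egr (0.08 ± 0.16) lay near 0. The fly Fos gene kay read at 176, 165 and 165 CPM in sham and 175, 108 and 121 CPM in control heads, which overlapped (0.32 ± 0.15, adjusted p = 0.898). Jra, the fly Jun, had 0.31 ± 0.17 (adjusted p = 0.957). Ets21C and Gadd45 passed whichever library was left out. Mmp1 missed without control replicate 2 (adjusted p = 0.154), control replicate 3 (0.0629), sham replicate 2 (0.100) or sham replicate 3 (0.0534). For puc it was between 0.06 and 0.279 without any 1 library other than control replicate 1.

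A list of EGF receptor and ERK feedback genes was put together after the values were seen. Of its 19 genes 3 passed, all higher, where 0.438% of all genes were called. The list median was 0.17, against 0 over all genes. As the values were known, the count is no separate support. None of the 3 passed when the 2 groups were fitted alone. Mkp3, the ERK phosphatase, read at 251, 264 and 252 CPM in sham and 186, 127 and 143 CPM in control heads (0.75 ± 0.14, adjusted p = 0.00828). The receptor tyrosine kinase regulator rau read at 4.15, 4.51 and 3.87 CPM in sham and 2.15, 2.01 and 1.76 CPM in control heads (1.07 ± 0.17, adjusted p = 0.0011). RasGAP1, which turns Ras off, had 86.3, 83.3 and 80.1 CPM in sham and 70.4, 49.4 and 59.6 CPM in control heads (0.48 ± 0.11, adjusted p = 0.0394). The feedback inhibitors sty (0.52 ± 0.15, adjusted p = 0.190) and aos (0.33 ± 0.10, adjusted p = 0.283) did not pass. The receptor Egfr (0.19 ± 0.15) and the ERK gene rl (-0.01 ± 0.14) were near 0. Besides Ets21C, 1 more of 8 ETS factors, also listed after the values were seen, rose (against 0.391% of all genes). It was Ets98B, at 85.3, 93.8 and 92.3 CPM in sham and 57.0, 46.1 and 44.9 CPM in control heads (0.87 ± 0.13, adjusted p = 3.76e-04). Mkp3 missed without control replicate 2 (0.0966), control replicate 3 (0.0629) or sham replicate 2 (0.0561), and RasGAP1 without any 1 library other than control replicate 1 (0.0751 to 0.361).

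**Figure D2:**
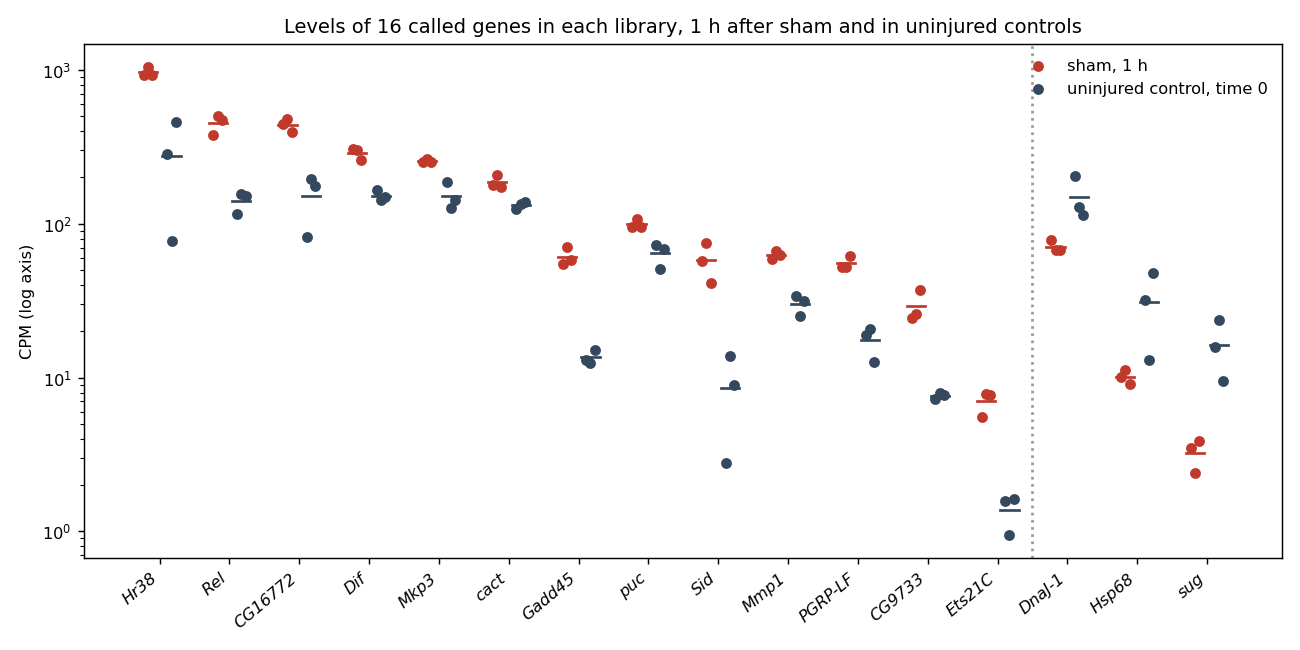
CPM (log axis) of 16 called genes in each library, sham at 1 h (red) left of uninjured control (dark), with a bar at each group mean. Left of the dotted line all sham libraries lie above all controls, and right of it DnaJ-1, Hsp68 and sug lie below them, with the controls of Hr38, Hsp68, Sid and sug the most spread.

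Of 14 immediate-early and activity-regulated genes tested, 2 rose, Hr38 and CrebA, and none fell (14.3% called, against 0.438% of all genes). The list median was 0.27. Hr38, a nuclear receptor of the NR4A family and the fly's common marker of neuronal activity, was the most abundant of the genes called. It read at 928, 1040 and 924 CPM in sham heads and at 286, 77.3 and 461 CPM in control heads (1.81 ± 0.39, adjusted p = 0.0276). The sham libraries were alike, whereas the controls spanned a wide range. The same 3 control RNAs, made into libraries again on day 1 and scaled apart, read at 247, 129 and 520 CPM, with replicate 2 the lowest and replicate 3 the highest on both days. sr, the fly Egr gene, was ordered in the same way: 169, 198 and 164 CPM in sham and 90.9, 34.1 and 145 CPM in control heads, with no overlap and no pass (0.98 ± 0.31, adjusted p = 0.322).

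CrebA, a transcription factor of secretory pathway genes, read at 80.1, 81.1 and 57.8 CPM in sham and 39.9, 24.5 and 34.8 CPM in controls (1.14 ± 0.24, adjusted p = 0.0202). The repressor gene hry was lower in each sham library, at 32.8, 33.4 and 32.6 CPM against 110, 47.1 and 44.3 CPM in controls, and did not pass (-1.03 ± 0.33, adjusted p = 0.359). Hr38 missed when control replicate 1 (adjusted p = 0.0684), control replicate 2 (0.0758), sham replicate 1 (0.0638), sham replicate 2 (0.129) or sham replicate 3 (0.0594) was left out, and CrebA reached 0.072 to 0.183 without control replicate 2 or 3 or sham replicate 1 or 2.

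Beyond these groups, 6 more genes are given in full. Sid, CG4269, CG9733 and Spn28Dc were named by the rule on the largest rises, and CG16772 and CG42866 were chosen after their values were seen. The rule also named CG6553, CG8907 and CG43095, which are given below by log2 fold change alone. Sid, a stress-induced DNase, read at 57.2, 75.0 and 41.1 CPM in sham and 2.80, 13.9 and 8.90 CPM in control heads (2.76 ± 0.53, adjusted p = 0.00848). CG4269 read at 3.50, 6.95 and 3.65 CPM in sham and 0.430, 0.917 and 0.492 CPM in control heads (2.92 ± 0.47, adjusted p = 0.00236). A predicted serine protease, CG9733, read at 24.4, 26.0 and 37.1 CPM in sham and 7.28, 7.90 and 7.73 CPM in controls (1.93 ± 0.36, adjusted p = 0.00848). Each of the 3 had all its sham libraries above all its controls. The serpin Spn28Dc, a protease inhibitor, was uneven in sham heads at 23.3, 75.7 and 38.2 CPM, against 10.1, 15.2 and 16.1 CPM in controls (1.73 ± 0.38, adjusted p = 0.0342). CG16772 read at 447, 477 and 398 CPM in sham and 82.2, 195 and 175 CPM in control heads (1.55 ± 0.33, adjusted p = 0.0276). Its neighbour CG42866, 0.993 kb away, rose as well at a low level, 0.874, 1.95 and 0.608 CPM in sham and 0.154, 0.247 and 0.352 CPM in controls (2.14 ± 0.48, adjusted p = 0.0342). Of these 6 genes CG4269 alone passed whichever library was left out. Sid missed without control replicate 3 (0.0629) or sham replicate 2 (0.0621). CG9733 missed without control replicate 2 (0.0549), control replicate 3 (0.054) or sham replicate 3 (0.0536). Spn28Dc missed without any 1 library other than sham replicate 1 (0.0536 to 0.472), CG16772 without any other than control replicate 2 (0.0534 to 0.135), and CG42866 without any other than sham replicate 3 (0.0553 to 0.464).

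Several genes outside these lists rose by a smaller factor. Inscuteable (insc), which orients dividing neural progenitors, had 7.04, 8.63 and 8.96 CPM in sham and 3.63, 3.67 and 3.80 CPM in control heads (1.15 ± 0.20, adjusted p = 0.00352). The unconventional myosin Myo31DF had 66.3, 72.7 and 75.8 CPM in sham and 34.6, 37.0 and 40.3 CPM in controls (0.94 ± 0.18, adjusted p = 0.00848). CG6701 had 148, 156 and 141 CPM in sham and 82.7, 75.6 and 74.1 CPM in controls (0.94 ± 0.13, adjusted p = 3.76e-04). Dronc, an initiator caspase, was the only riser among 14 apoptosis genes listed after the values were seen, where 0.391% of all genes rose. It read at 16.1, 18.2 and 16.6 CPM in sham and 12.7, 10.7 and 12.5 CPM in control heads (0.50 ± 0.10, adjusted p = 0.0120). The death genes hid (0.04 ± 0.20) and rpr (-0.21 ± 0.26) did not pass. Of these, Dronc missed without control replicate 2 (0.135) or sham replicate 2 (0.129) and Myo31DF without control replicate 2 (0.059) or sham replicate 2 (0.0561).

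The remaining genes that rose were CG6553 (1.82), CG8907 (1.61), CG43095 (1.59), HP1D3csd (2.20), CG9447 (2.05), lncRNA:CR45280 (2.58), stac (0.83), CG13516 (0.82), the transcription factor Dref (0.62), CG9717 (0.61), the NAD kinase gene Nadk1a (0.61), the kinase Pak3 (0.59), the anoctamin subdued (0.54), CG14762 (0.48) and the ubiquitin protease Usp32 (0.47), all given as log2 fold changes. Of these 15 genes CG8907, CG13516 and Usp32 passed whichever library was left out, and the others missed without 2 to 6 of the 6 libraries. The gene lncRNA:CR45280 lies 3.95 kb from Gadd45 on 2R. FBgn0283462, which no table used here pairs with a symbol or position, had the highest value of all called genes (2.96 ± 0.65) at 1.18, 1.95 and 1.25 CPM in sham and 0.0307, 0.353 and 0.176 CPM in control heads, and missed without 5 of the 6 libraries (adjusted p = 0.0568 to 0.18).

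The genes that fell included 2 chaperones. Of 18 heat-shock and chaperone genes tested, 2 fell and none rose (11.1% called, against 0.438% of all genes), and the list median was -0.47. At an unadjusted p under 0.05 there were 9 lower and 0 higher (against 5.38% of all genes in either direction), and DESeq2 called 3 lower. DnaJ-1, the Hsp40 co-chaperone induced with Hsp70, read at 78.1, 67.5 and 67.9 CPM in sham and 204, 128 and 114 CPM in control heads (-1.06 ± 0.14, adjusted p = 1.39e-04). Hsp68, an inducible Hsp70 relative, read at 10.1, 11.2 and 9.09 CPM in sham and 31.8, 13.1 and 47.9 CPM in control heads (-1.61 ± 0.36, adjusted p = 0.0342). The sham libraries of both were close together and the controls were spread. On the other library day the same control RNAs read at 65.7, 20.2 and 73.0 CPM for Hsp68 and 270, 204 and 141 CPM for DnaJ-1, in the same order as on day 2.

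Other members of the list pointed the same way without passing. Hsp70Bc read at 0.700, 0.597 and 0.544 CPM in sham and 3.14, 1.02 and 2.29 CPM in control heads (-1.81 ± 0.43, adjusted p = 0.0532). Its copies share near-identical sequence. The deposited table held reads without a unique alignment as a category of their own (4.04% to 6.23% in the 6 libraries). That category was left out here, so the level may be understated. Hsp27 (-2.06 ± 0.60, adjusted p = 0.204), Hsp26 (-1.12 ± 0.47, adjusted p = 0.756) and Hsp83 (-0.49 ± 0.23, adjusted p = 0.898) had controls that overlapped the sham libraries. Without control replicate 1 the list held 1 call, DnaJ-1, as Hsp68 then had an adjusted p of 0.0684. Hsp68 also missed without control replicate 3 (0.365) or any 1 sham library (0.141 to 0.178). DnaJ-1 passed whichever library was left out, but not when the 2 groups were fitted alone (0.154). For Hsp70Bc the adjusted p was 0.0177 without control replicate 2 and 0.0064 in DESeq2.

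The lowest value among the called genes belonged to sug, at 3.50, 2.39 and 3.87 CPM in sham heads and 15.8, 23.6 and 9.49 CPM in control heads (-2.30 ± 0.39, adjusted p = 0.00317), a 4.93-fold lower level. It passed whichever library was left out. Among 17 genes of starvation, insulin and Akh signalling tested it was the only call (5.88%, against 0.438% of all genes). The list median was -0.05, and -0.18 without control replicate 1. On the other library day the same control RNAs read at 67.4, 48.2 and 27.1 CPM for sug, with replicate 3 the lowest on both days and the other replicates in the opposite order. Thor, the 4E-BP gene induced by FoxO, stood higher in each sham library, at 179, 139 and 171 CPM against 97.0, 129 and 103 CPM in controls, and did not pass (0.57 ± 0.15, adjusted p = 0.155). CG30431 fell as well, with 5.42, 3.31 and 6.08 CPM in sham and 9.84, 8.64 and 12.7 CPM in control heads (-1.06 ± 0.23, adjusted p = 0.0265). The antisense RNA gene asRNA:CR44181 had 10.8, 8.85 and 15.4 CPM in sham and 21.9, 23.6 and 23.1 CPM in control heads (-0.96 ± 0.19, adjusted p = 0.0123). The asRNA:CR44181 gene overlaps CG7300 on the opposite strand, which had a log2 fold change of -0.09. No source used here gives the strand setting of the counting, so reads of that pair may be mixed. CG30431 missed without control replicate 3 (0.202), sham replicate 1 (0.0701) or sham replicate 2 (0.27), and asRNA:CR44181 without control replicate 2 (0.0626), control replicate 3 (0.054), sham replicate 1 (0.0894) or sham replicate 2 (0.167).

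**Figure D3:**
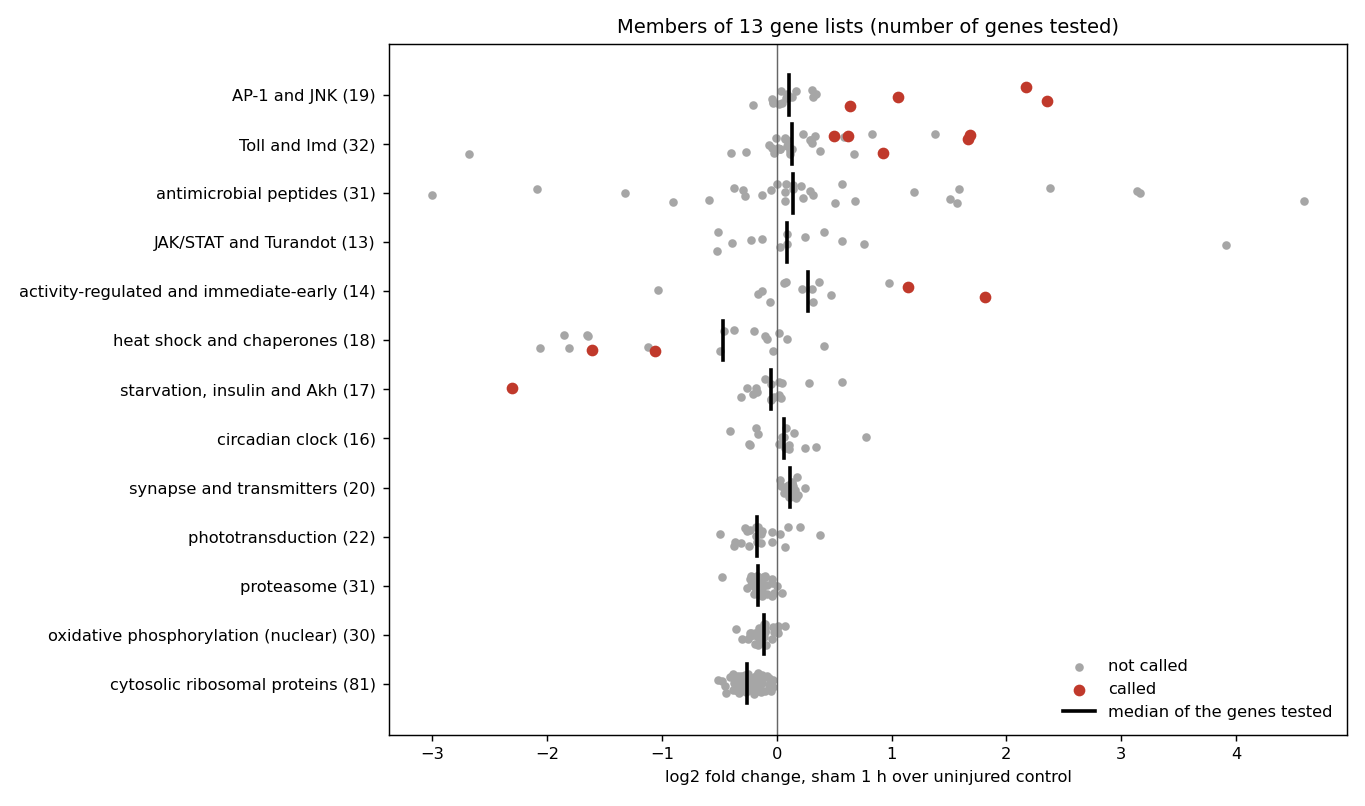
Log2 fold change of sham at 1 h over uninjured control for the tested members of 13 gene lists, 1 point per gene, called genes in red and the median of each list as a bar. Calls stand in 5 of the lists shown, to the right in the JNK, Toll and Imd and immediate-early lists and to the left in the heat-shock and starvation lists, and all 81 ribosomal protein genes lie below 0.

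No gene was called in 25 of the 30 lists. Their 499 tested genes held 11 higher and 5 lower at an unadjusted p under 0.05 (against 5.38% of all genes in either direction) and 1 call in DESeq2. Among these lists were JAK/STAT, detoxification, hypoxia, ecdysone response, circadian clock, glia, synapses and phototransduction. The cytokine upd3 was barely detected, at 0.350, 0.109 and 0.224 CPM in sham and 0, 0.0353 and 0 CPM in control heads (adjusted p = 0.0829). Its target TotA read at 280, 144 and 274 CPM in sham and 299, 238 and 274 CPM in controls. The clock genes tim (0.34 ± 0.48) and per (0.25 ± 0.39), which cycle over the day, did not pass. tim read at 164, 148 and 140 CPM in sham and 130, 97.9 and 129 CPM in control heads, with no overlap. Sham heads averaged 1150 ± 215 CPM (SD, n = 3) at 6 h and 1350 ± 1070 CPM at 12 h. The SE of tim rests on a spread shared with those libraries. Whether the hour of day differed was not tested. Small shared shifts stood in lists without a call: all 81 cytosolic ribosomal protein genes had values below 0 (median -0.26), as had 30 of 31 proteasome genes (median -0.16) and 27 of 30 nuclear genes of oxidative phosphorylation (median -0.11), and all 20 synaptic genes had values above 0 (median 0.12). Over all genes 5480 of 10739 were above 0. Genes of 1 list were read in the same 6 libraries, so they are not separate readings of a shift. These medians kept their sign with RLE factors, with library size alone and without the mitochondrial genome. Without control replicate 1 they were -0.49, -0.33, -0.27 and 0.39, with 1 ribosomal protein gene above 0. None of their genes passed.

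Levels at later sham times are given as means, as no test set sham at 3, 6 or 12 h against controls. Over the controls and the 5 sham times, 40 of the 42 genes that rose had their highest mean at 1 h, the time at which they were chosen for being high. Hr38 averaged 965 ± 66.7 CPM (SD, n = 3) at 1 h, 58.9 ± 16.0 CPM at 3 h and 26.3 ± 3.62 CPM at 24 h, against 275 ± 192 CPM in controls. Gadd45 averaged 61.1 ± 8.33 CPM at 1 h and 14.9 ± 1.67 CPM at 3 h, against 13.6 ± 1.39 CPM in controls. Rel averaged 451 ± 64.9 CPM at 1 h and 160 ± 46.5 CPM at 3 h, against 141 ± 23 CPM in controls. By 3 h these 3 means were near or below the control mean. Others still stood above it at 3 h, as did Ets21C (2.80 ± 0.538 CPM, against 1.38 CPM in controls), Myo31DF (66.5 ± 13.6 CPM, against 37.3 CPM), rau (3.74 ± 0.0515 CPM, against 1.97 CPM) and CG4269 (3.07 ± 1.21 CPM, against 0.613 CPM). The 2 genes with their highest mean at 3 h were CG16772 and spz3. CG16772 averaged 557 ± 320 CPM at 3 h and 441 ± 39.9 CPM at 1 h, with 540, 884 and 245 CPM in the 3 h libraries, so that these times overlapped. spz3 averaged 22.1 ± 2.64 CPM at 3 h and 14.5 ± 1.49 CPM at 1 h, with no overlap. Sid fell off slowly, with 47.0 ± 23 CPM at 3 h and 15.6 ± 5.66 CPM at 6 h, and dl averaged 94.7 ± 3.86 CPM at 3 h and 95.8 ± 3.97 CPM at 1 h.

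The genes that fell took different courses. sug averaged 3.25 ± 0.772 CPM at 1 h and 14.1 ± 6.63 CPM at 3 h, against 16.3 ± 7.05 CPM in controls. DnaJ-1 averaged 71.2 ± 6.02 CPM at 1 h, 84.9 ± 3.20 CPM at 3 h, 89.0 ± 8.01 CPM at 6 h and 130 ± 12.7 CPM at 12 h, against 149 ± 48.6 CPM in controls. Its libraries at 3 and 6 h lay below all controls (204, 128 and 114 CPM), and those at 12 h (124, 121 and 144 CPM) overlapped them. Hsp68 averaged 7.86 to 10.2 CPM between 1 and 12 h and 18.7 ± 6.86 CPM at 24 h, against 30.9 ± 17.4 CPM in controls.

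**Figure D4:**
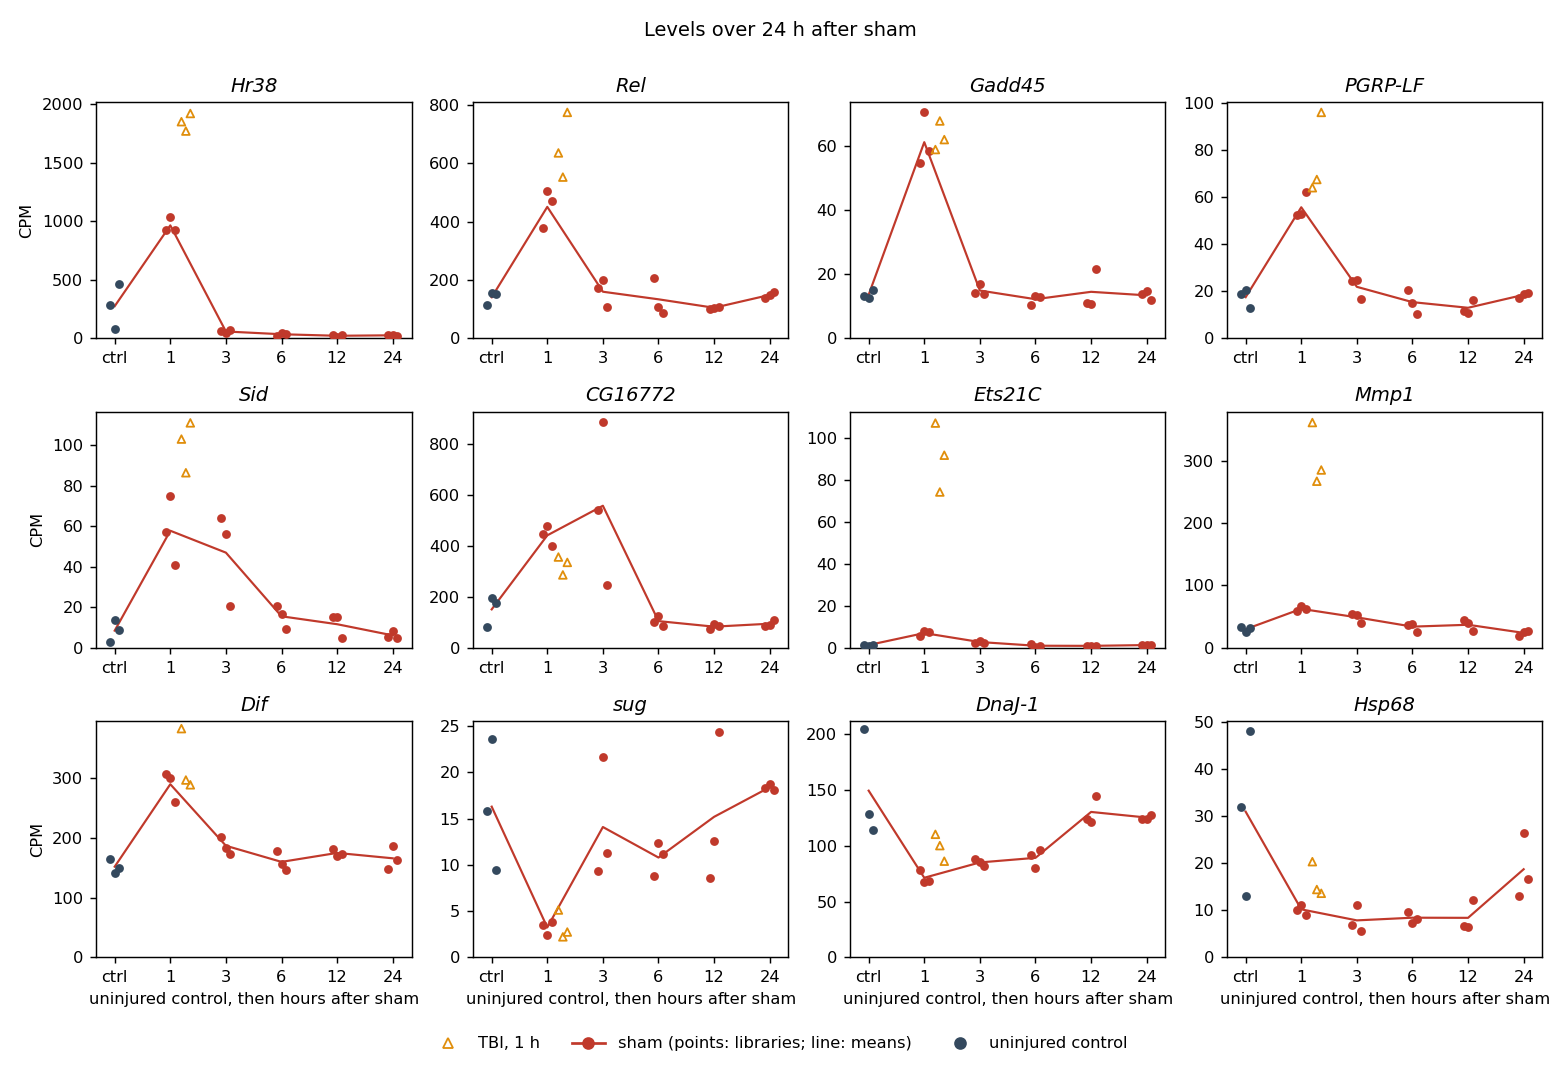
CPM of 12 called genes in uninjured controls (dark) and at 1, 3, 6, 12 and 24 h after sham (red points are libraries, the line joins means), with TBI at 1 h as open triangles. Hr38, Rel, Gadd45 and PGRP-LF peak at 1 h and are low at 3 h, Sid and CG16772 are still high at 3 h, and Ets21C and Mmp1 are far higher after TBI than after sham.

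At 24 h after sham, in a comparison that shares the control libraries, none of the 42 genes was called higher than in controls by edgeR and 3 were called lower, while 1.28% of all genes were called (0.754% higher, 0.521% lower). At an unadjusted p under 0.05 there were 3 higher and 8 lower of the 42, and DESeq2 called 2 higher and 5 lower. Over all 10739 genes 1410 had an unadjusted p under 0.05 in either direction, and DESeq2 called 128 higher and 164 lower. The 3 called lower in edgeR were Hr38 (-3.39 ± 0.42, adjusted p = 1.83e-04), CG9717 (-0.56, adjusted p = 0.0361) and Nadk1a (-0.58, adjusted p = 0.0250). sr was lower at 24 h as well (-2.17 ± 0.32, adjusted p = 0.00126), so both activity genes stood above the later sham flies in uninjured controls. None of the 5 genes that fell at 1 h was called at 24 h by either tool, and 2 were lower at an unadjusted p under 0.05. Tested directly, in a comparison that shares the sham libraries at 1 h, 38 of the 42 were higher at 1 h than at 24 h after sham (1.48% of all genes were) and 3 of the 5 were lower (0.801%). CG4269, lncRNA:CR45280, CG9447 and CG14762 were not called between those times in edgeR, nor were Hsp68 and asRNA:CR44181. DESeq2 called 40 of the 42 higher, adding CG4269 and lncRNA:CR45280, and 253 of all genes. CG4269 still averaged 1.96 CPM at 24 h after sham, against 0.613 CPM in controls, where it had an adjusted p of 0.104.

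The same genes were then read in libraries other than the 6 of the 1 h comparison. All these libraries entered 1 model, so each gene's estimate of spread was shared with that comparison and the readings are not fully separate. The called genes also had a median level of 37.4 CPM over the 6 libraries, against 16.8 CPM for all genes tested. At 3 h against 24 h after sham, 11 of the 42 were higher (26.2%, against 1.19% of all genes, of which 2.66% were called in either direction) and none lower, 40 had values above 0, and the median log2 fold change was 0.39. These 11 made up 8.59% of the 128 genes higher at 3 h. They were Sid (2.93 ± 0.54, adjusted p = 0.00307), CG16772 (2.55, adjusted p = 2.39e-04), CG9733 (1.88 ± 0.39, adjusted p = 0.00904), spz3 (1.66, adjusted p = 3.13e-04), Ets21C (1.04), Mmp1 (1.02), Myo31DF (0.81), rau (0.63), dl (0.59), Ets98B (0.49) and cact (0.43). In edgeR Hr38 did not pass there (1.16 ± 0.39, adjusted p = 0.112), nor did Rel (0.10 ± 0.27) or Gadd45 (0.15 ± 0.20). Of the 5 genes that fell, DnaJ-1 was lower (-0.56, adjusted p = 0.0292; 1.47% of all genes were lower). Over the same 42 genes the count was 13 in DESeq2, with Hr38 and CG9717 added, where 246 of all genes were higher. The count was 3 when only the 2 groups of the comparison were fitted (31 of all genes higher). With library size alone, where the median of all genes moved to -0.15, the count was 6 (44 of all genes higher). It was 5 without sham replicate 1 at 3 h or at 24 h, and 6 without sham replicate 3 at 24 h.

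In injured flies at 1 h against 24 h, 37 of the 42 were higher (88.1%, against 15.6% of all genes), 1 was lower, and the median was 1.51. These 37 made up 2.22% of the 1670 genes higher there. Hr38 had 5.65 ± 0.46 (adjusted p = 3.39e-09), CG9733 3.76, Ets98B 3.15 and Rel 1.78. The gene that was lower was CG14762 (-0.31, adjusted p = 0.0285), and CG4269 (-0.81), lncRNA:CR45280 (1.00), HP1D3csd (0.71) and dl (-0.06) did not pass. dl averaged 277 ± 5.36 CPM at 1 h and 289 ± 25.7 CPM at 24 h after TBI. Of the 5 genes that fell after sham 4 were lower (16.2% of all genes were), among them sug (-1.32, adjusted p = 0.0137) and Hsp68 (-1.47, adjusted p = 0.00328), and DnaJ-1 was not called (-0.23).

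**Figure D5:**
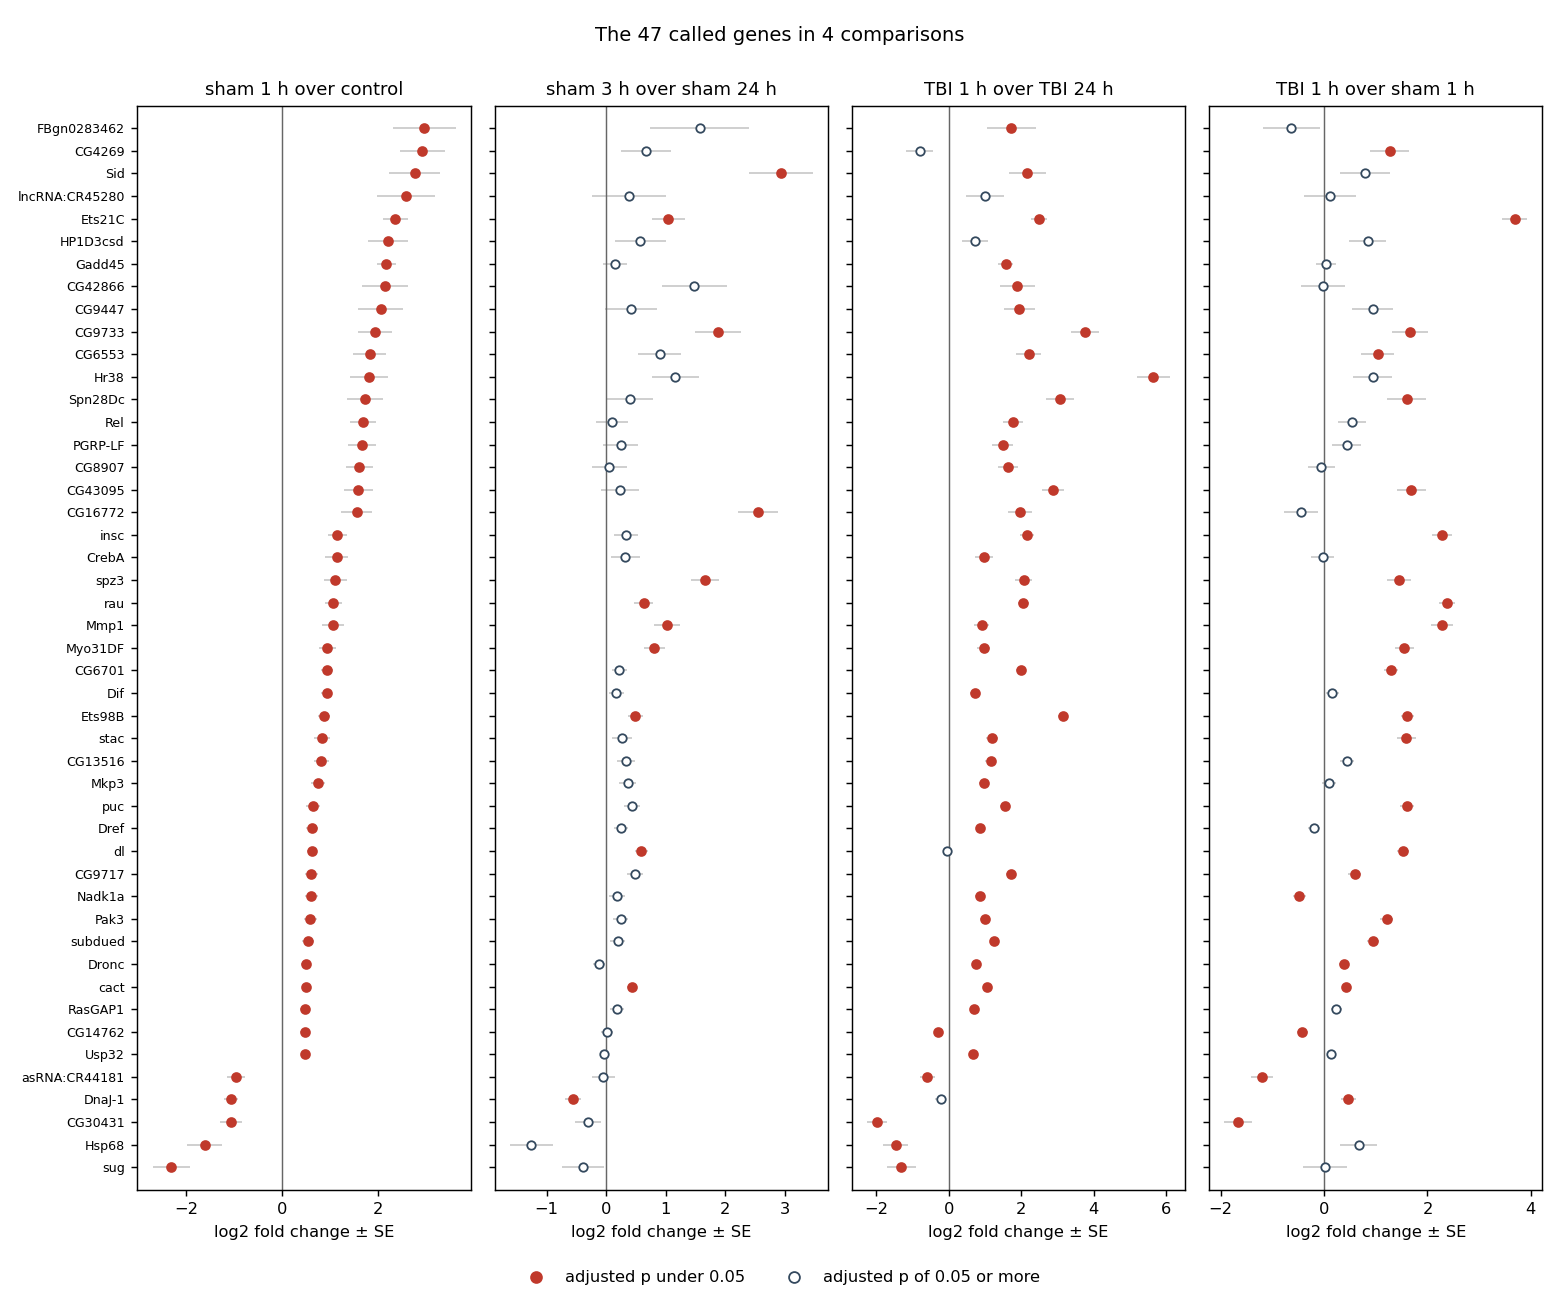
Log2 fold change ± SE of the 47 called genes in 4 comparisons, filled red where the adjusted p was under 0.05. The first panel is the comparison that chose the genes. The middle panels share no library with it but share its model and estimate of spread, and the last shares the sham libraries at 1 h. Of the 42 genes that rose, 11 and 37 were called higher in the middle panels and 21 in the last.

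Set beside sham at the same hour, the genes that rose were called higher, lower or not at all after injury. At 1 h, TBI over sham, a comparison that shares the sham libraries, called 21 of the 42 higher (4.98% of all genes were), 2 lower (2.41%) and 19 not at all, with 7.39% of all genes called in either direction. Ets21C averaged 91.1 ± 16.6 CPM after TBI and 7.06 ± 1.31 CPM after sham (3.69, adjusted p = 4.74e-11). Mmp1 averaged 304 ± 49.7 CPM after TBI and 62.6 ± 3.85 CPM after sham (2.28, adjusted p = 5.84e-08). Other genes called higher after TBI were rau (2.38), insc (2.28), CG9733 (1.66), Ets98B (1.61), puc (1.60) and dl (1.53). Of the 4 JNK genes that rose after sham 3 were called higher after injury than after sham, as were both ETS factors.

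Gadd45 averaged 62.8 ± 4.52 CPM after TBI and 61.1 ± 8.33 CPM after sham (0.04 ± 0.19, adjusted p = 0.947). Dif averaged 323 ± 52.1 CPM after TBI and 290 ± 24.6 CPM after sham (0.16 ± 0.12, adjusted p = 0.575), and Mkp3 274 ± 24.7 CPM after TBI and 256 ± 7.42 CPM after sham (0.10, adjusted p = 0.788). For Rel the TBI mean was 655 ± 112 CPM and the sham mean 451 ± 64.9 CPM (0.54 ± 0.27, adjusted p = 0.302). Hr38 averaged 1840 ± 76.0 CPM after TBI and 965 ± 66.7 CPM after sham, which did not overlap and did not pass (0.94 ± 0.38, adjusted p = 0.165). A p that misses the threshold does not show that sham and injury acted alike on these genes. sug averaged 3.37 ± 1.54 CPM after TBI and 3.25 ± 0.772 CPM after sham (0.02, adjusted p = 0.988). DnaJ-1 was higher after TBI than after sham, with 98.5 ± 11.9 CPM after TBI and 71.2 ± 6.02 CPM after sham (0.47, adjusted p = 0.0389), and Hsp70Bc likewise, with 2.17 ± 0.294 CPM after TBI and 0.614 ± 0.0789 CPM after sham (1.82 ± 0.44, adjusted p = 0.00800). CG14762 (-0.42) and Nadk1a (-0.48) were lower after TBI than after sham.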

How the data were processed

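The authors deposited a table of gene counts, 1 column per library. Per the submitters' processing notes they used FastQC and MultiQC for quality, HISAT2 for alignment, Picard, HTSeq for counting, and DESeq2. No source used here gives versions, build, annotation or strand setting. The labels describe a stranded kit and 2 days of library preparation. Counts were used as deposited, without 5 categories of unassigned reads. Symbols (17343 matched, 138 not) and neighbouring genes come from BDGP6.54 (Ensembl release 115).

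All 33 libraries of day 2, in 11 groups of 3, entered 1 quasi-likelihood model in edgeR 4.0.16 (R 4.3.3), with TMM factors, filterByExpr and robust estimation. It left 22 residual degrees of freedom, and the biological coefficient of variation came to 0.167. The spread is thus shared with 27 libraries outside the comparison. A gene was called where the p adjusted by Benjamini and Hochberg fell under 0.05, whatever its fold. SE is the absolute log2 fold change over the square root of F. CPM use the library size multiplied by the TMM factor, apart from the levels of cell type markers, which use library size alone. The steps were tested on simulated counts. Alternatives were RLE factors, library size alone, no filter, DESeq2 1.42.0, a replicate block, the 2 groups alone, a 2-fold minimum, and each library left out. Scaling without the mitochondrial genome was added after seeing the data.

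The genes and the lists were chosen with earlier results of these data known. Named by rule were up to 12 higher and 12 lower genes with the largest change among called genes of at least 2 CPM without overlap, up to 4 called genes per list, and 14 genes whether called or not. Of these 14, Ldh (0.72 ± 0.41, adjusted p = 0.991, sham higher without overlap) and Hsp70Aa (-1.65 ± 0.79, adjusted p = 0.91, with overlap) are not given above and did not pass. Other names were chosen after their values were seen.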

Additional observations from a re-analysis of the deposited data

Results flagged for a closer look

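Genes that differed from the controls at 1 h were looked at again where the 1 h and the 24 h sham groups themselves differed (edgeR quasi-likelihood test, adjusted p under 0.05 over all genes), as they did for 41 of the 47, namely 38 of the 42 that rose and 3 of the 5 that fell. The comparison shares the sham libraries at 1 h with the one that chose the genes, so it is no separate support for the rise. Values below are log2 fold changes of sham at 1 h over sham at 24 h.

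The largest was that of Hr38 (5.20), whose controls also stood above the sham flies at 24 h. FBgn0283462 (3.61), CG9733 (3.30), Sid (3.23), CG42866 (2.55), Ets21C (2.38), CG16772 (2.21), Gadd45 (2.19) and Spn28Dc (2.11) followed. CG6553 (1.87), CG8907 (1.70), HP1D3csd (1.66), Rel (1.59), PGRP-LF (1.59), CG43095 (1.54), Mmp1 (1.37), Ets98B (1.26), Nadk1a (1.18), CG9717 (1.17), Mkp3 (1.09), CrebA (1.05) and spz3 (1.05) were also at least 2-fold higher at 1 h. Smaller values were those of insc (0.97), CG6701 (0.96), CG13516 (0.96), Myo31DF (0.92), Dref (0.92), cact (0.82), Dif (0.81), rau (0.79), puc (0.75), stac (0.75), Dronc (0.61), dl (0.61), RasGAP1 (0.57), subdued (0.57), Pak3 (0.51) and Usp32 (0.44). Among the genes that fell, DnaJ-1 (-0.81), CG30431 (-1.29) and sug (-2.48) were lower at 1 h than at 24 h.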

How the results depend on the processing

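All 47 genes kept their direction under every alternative run, and 9 kept their call in all of them apart from the 2-fold minimum (CG4269, Ets21C, Gadd45, Rel, insc, CG6701, Dif, Ets98B and sug). The cause of the changes below was not tested. Of the 47 calls at 1 h, 27 (23 higher) were at least 2-fold. There were 45 with RLE factors, 31 (3 lower) with library size alone, 35 without the filter, 73 (14 lower) in DESeq2, 26 (23 higher, 3 lower; 18 of the 47) with the 2 groups fitted alone, and 47 without the mitochondrial genome, 45 of them shared. Leaving out 1 library gave 17 to 63 calls, 15 to 49 higher and 2 to 14 lower.

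Sham at 24 h against control had 137 calls, but 310 with library size alone, 72 without the filter, 292 in DESeq2, 23 with the 2 groups alone and 19 to 394 without 1 library. Sham at 1 h against 24 h had 245 calls, 383 in DESeq2 and 100 to 172 without 1 library. Sham at 3 h against 24 h had 286 calls, 436 in DESeq2, 76 with the 2 groups alone and 72 to 214 without 1 library. TBI at 1 h had 3414 calls against TBI at 24 h (2103 to 3134 without 1 library) and 794 against sham (498 to 690). Of the 42 genes that rose at 1 h, 11 were higher at 3 h than at 24 h after sham. Over the same 42, a count added after seeing the data, there were 6 with library size alone, 3 with the 2 groups alone, 13 in DESeq2 and 5 to 10 without 1 library of that comparison. Over the genes each alternative itself called higher at 1 h there were 4 of 28 with library size alone, 7 of 31 without the filter, 17 of 59 in DESeq2 and 2 of 23 with the 2 groups alone, and 5 to 11 without 1 library. After TBI 37 of the 42 were higher at 1 h than at 24 h, 36 to 39 of the same 42 under the alternatives. Over each alternative's own genes there were 20 of 23 with the 2 groups alone, and without 1 library 13 (of 15) to 40 (of 49), which is 81.6% to 90.9% of the list.

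Library size alone moved the median of all genes to 0.13, -0.15, -0.15 and -0.31, and the split of higher and lower calls to 282 and 28 for sham at 24 h against control (81 and 56 with TMM, 61 and 66 with RLE), 76 and 184 for sham at 1 h against 24 h (159 and 86 with TMM), 44 and 194 for sham at 3 h against 24 h (128 and 158), and 645 and 3777 for TBI at 1 h against 24 h (1670 and 1744).

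Deviations of same-numbered sham and control libraries correlated at 0.206, -0.0598 and 0.261, and those of differently numbered ones at -0.272 to 0.163. These values do not settle whether the numbers mark pairs, and the reported fit did not treat them as pairs. With the replicate number as a block 51 genes were called at 1 h (45 higher, 6 lower), 46 of the 47 among them, and 87 for sham at 24 h against control. With 3 libraries a group, differences within the spread between libraries were not detectable.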
